A study of Caenorhabditis elegans with 6 samples.

Results

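The genes gln-5 and gln-6 encode glutamine synthetases of Caenorhabditis elegans. They were taken by name from a deposited table of 5792 genes, where each has 1 entry, so they are 2 of 5792 genes. They were chosen because both were much lower in TGQ than in WT animals, so their values in this comparison are given as a description, with no test. RNA selected for poly(A) was sequenced from whole animals at L4, the last larval stage, in 3 WT and 3 TGQ samples. All animals had been kept at 20 °C on OP50, a strain of Escherichia coli used as food, since they hatched. SJ4100, the strain label of the WT samples, names a strain with a GFP reporter under the promoter of the mitochondrial chaperone gene hsp-6. The other group carries only the strain name TGQ, and the sources used here do not give its genotype, its derivation or whether it holds the reporter. The series title concerns inherited elevation of mitochondrial DNA, the mitochondrial stress response and aging.

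Glutamine synthetase joins ammonia to glutamate and spends ATP to form glutamine. Glutamine then gives its amide nitrogen to the making of purines, pyrimidines, asparagine and amino sugars. The amino sugar route starts with glutamine:fructose-6-phosphate aminotransferase and leads to the building block of chitin, a polymer that C. elegans places in its eggshell and pharynx. Glutaminases run the other way and release glutamate from glutamine, and glutamate dehydrogenase links glutamate to the tricarboxylic acid cycle.

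The list of glutamine synthetase genes held 6 names, of which 5 were in the table, and gln-3 is not analysed here. In the WBcel235 annotation, gln-5 (WBGene00001606) lies on the minus strand of chromosome IV at 17272231 to 17273652, and gln-6 (WBGene00001607) on the same strand of the same chromosome at 9739261 to 9740901. The sources used here do not give the build the authors used. The 2 genes are 7.53 Mb apart, with 1354 annotated protein-coding genes between them, so they are not a tandem pair. Each has 1 annotated transcript of 4 exons. The coding sequence of gln-5 spans 1107 bases for 369 residues, and that of gln-6 spans 1104 bases for 368 residues. The deposited annotation gives both proteins the catalytic domain and the N-terminal beta-Grasp domain of glutamine synthetases, and its Swiss-Prot hit for both is the same C. elegans entry, which is also the hit of gln-2.

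The other family genes are placed elsewhere. The gene gln-2 (chromosome III, 9943243 to 9944823) also has 4 exons and encodes 367 residues. The gene gln-1 (chromosome X, 6058255 to 6060242) has 7 exons and encodes 385 residues, and its Swiss-Prot hit is a mouse glutamine synthetase. The entry gln-4 (chromosome III, 13601760 to 13603156) is annotated as a pseudogene. Exons cover 1280 bases in gln-5, 1457 in gln-6, 1278 in gln-2 and 1369 in gln-1, so lengths differ little among the 4 protein-coding genes. How far reads are shared among these related genes was not tested.

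In gln-5 the expression signal was 34.4, 23.2 and 23.4 in WT replicates 1, 2 and 3, and 7.81, 4.96 and 5.62 in TGQ replicates 1, 2 and 3. The signal is the authors' normalized value per gene, whose unit the file does not name. Every TGQ sample was below every WT sample, and the lowest WT value was 2.97 times the highest TGQ value. The WT mean of 27 ± 6.43 (SD, n = 3) was 4.4 times the TGQ mean of 6.13 ± 1.49. The difference was -1.97 on the log2(signal + 1) scale, which understates differences of low values, and -2.26 in the log2 fold of the authors' deposited table.

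In gln-6 the signal was 67.1, 44.4 and 48.9 in the 3 WT samples and 17.02, 13.73 and 13.96 in the 3 TGQ samples. These groups did not overlap either, the lowest WT value being 2.61 times the highest TGQ value. The WT mean of 53.5 ± 12 (SD, n = 3) was 3.59 times the TGQ mean of 14.9 ± 1.84. The log2 difference was -1.76, and it was -1.98 in the authors' deposited table. Groups that do not overlap, with TGQ lower, were found for 47.2% of the 5540 genes tested, in a table selected by the authors on these same samples. Adjusted p-values of the authors' deposited table run up to 0.0499.

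**Figure D1:**
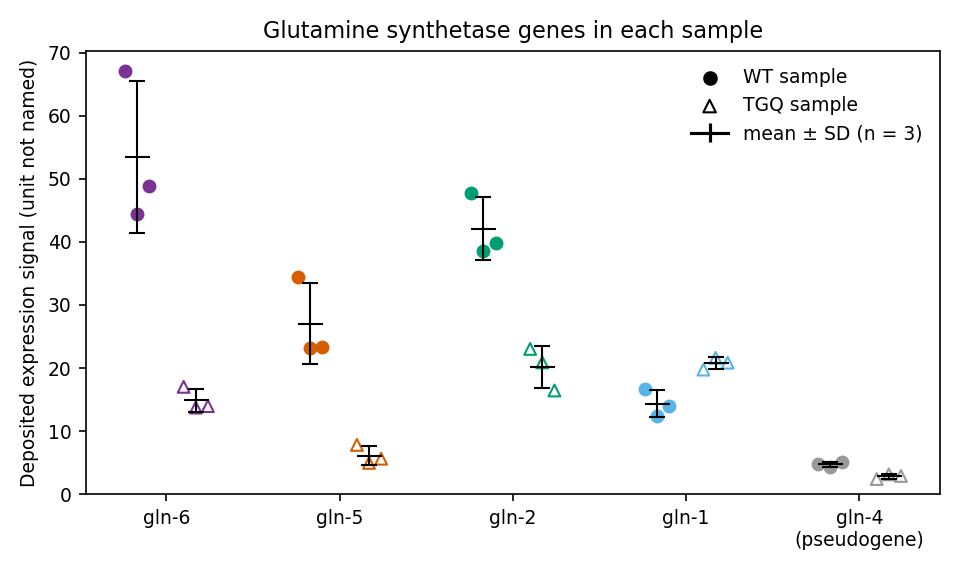
Expression signal (vertical axis, unit not named in the file) of the 5 glutamine synthetase entries in each sample. Filled circles are WT samples, open triangles TGQ samples and black bars mean ± SD (n = 3). For gln-6 and gln-5 all TGQ samples lie below all WT samples, at 13.73 to 17.02 against 44.4 to 67.1 and at 4.96 to 7.81 against 23.2 to 34.4, while gln-1 lies higher in TGQ.

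By the size of the difference the members stand in the lower tail of the table. Among the 5540 genes with a signal of at least 1 in at least 3 samples, 128 genes (2.31%) had a more negative log2 difference than gln-5 and 182 genes (3.29%) than gln-6. The median log2 difference of all genes tested was -0.22.

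**Figure D2:**
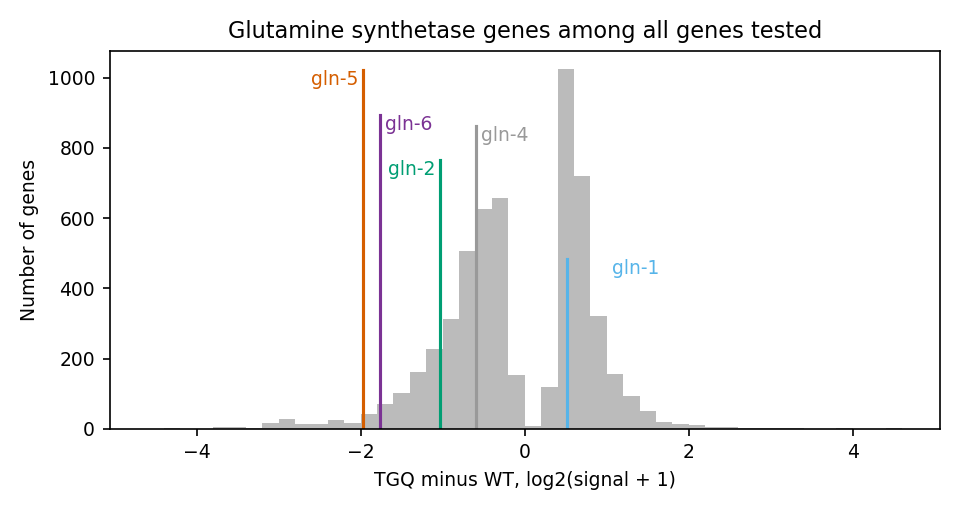
Number of genes (vertical axis) by log2 difference, TGQ minus WT on log2(signal + 1) (horizontal axis), for the 5540 genes tested. Coloured lines mark gln-5 at -1.97, gln-6 at -1.76, gln-2 at -1.03, gln-4 at -0.59 and gln-1 at 0.51, and line heights carry no value. Few genes lie near 0 because the authors had selected the table for a difference.

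The members also varied together within the groups. WT replicate 1 was the highest WT sample for both, at 1.48 times the mean of the other 2 WT samples for gln-5 and 1.44 times for gln-6, against a median of 1.18 over the genes tested. TGQ replicate 1 was the highest TGQ sample for both, at 1.48 times the mean of the other 2 for gln-5 and 1.23 times for gln-6, against a median of 1.07. Without WT replicate 1 the log2 differences were -1.79 for gln-5 and -1.59 for gln-6.

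The level of gln-5 relative to gln-6 was also lower in TGQ. The ratio of gln-5 to gln-6 was 0.513, 0.523 and 0.478 in the WT samples and 0.459, 0.361 and 0.403 in the TGQ samples. No TGQ sample reached the lowest WT ratio, and the means were 0.505 ± 0.0237 for WT (SD, n = 3) against 0.408 ± 0.049 for TGQ. The gap of gln-5 minus gln-6 in log2 difference was -0.21 on the log2(signal + 1) scale and -0.31 in the log2 of the ratio itself, so gln-5 was the lower of the 2 in relative terms.

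Of the other family genes, the protein-coding gln-2 and the pseudogene gln-4 fell and gln-1 rose in TGQ. The test was limma on log2(signal + 1) over the whole table, with Benjamini-Hochberg adjustment and a call at an adjusted p under 0.05. It called 90.2% of the genes tested, 45.6% higher and 44.6% lower in TGQ, so a call of itself sets no gene apart.

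In gln-2 the signal was 47.8, 38.5 and 39.8 in WT and 23.0, 20.9 and 16.4 in TGQ. The fall was called, with a log2 difference of -1.03 (SE 0.15, adjusted p = 0.000296, limma), and the groups did not overlap. In gln-1 the signal was 16.6, 12.5 and 14.0 in WT and 19.8, 21.6 and 20.9 in TGQ. This rise was called as well, with a log2 difference of 0.51 (SE 0.13, adjusted p = 0.00594, limma), and all TGQ samples were above all WT samples, as they were for 44% of the genes tested. The pseudogene gln-4 was low throughout, with a WT mean of 4.74 ± 0.393 (SD, n = 3) and a TGQ mean of 2.81 ± 0.376 (log2 difference -0.59, SE 0.13, adjusted p = 0.00295, limma). A sixth entry, F40F12.8, has the same enzyme class as the gln genes in the deposited annotation and was named after its values were seen. It stood at 5.97 ± 0.852 in WT and 3.94 ± 0.498 in TGQ.

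The order of the family changed between the groups. In WT gln-6 had the highest mean, overlapping with gln-2, followed by gln-5 and then gln-1, with no overlap between gln-2 and gln-5 or between gln-5 and gln-1. In TGQ gln-1 and gln-2 overlapped at the top, the highest gln-6 sample (17.02) lay just above the lowest gln-2 sample (16.4), and all gln-5 samples lay below those of the other 3. These orders compare signals across genes of similar exon length. The pseudogene was lowest in both groups.

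The summed signal of gln-1, gln-2, gln-5 and gln-6 had a mean of 137 ± 25.4 for WT (SD, n = 3) and of 61.9 ± 5.4 for TGQ. Together gln-5 and gln-6 supplied 61.2%, 57.0% and 57.3% of this sum in the WT samples and 36.7%, 30.5% and 34.4% in the TGQ samples. Their joint share was therefore lower in all 3 TGQ samples. The share of gln-1 was 10.5% ± 0.534 in WT and 33.7% ± 3.97 in TGQ, whereas that of gln-2 was 31.0% ± 1.92 and 32.4% ± 3.0. The sum leaves out gln-3.

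**Figure D3:**
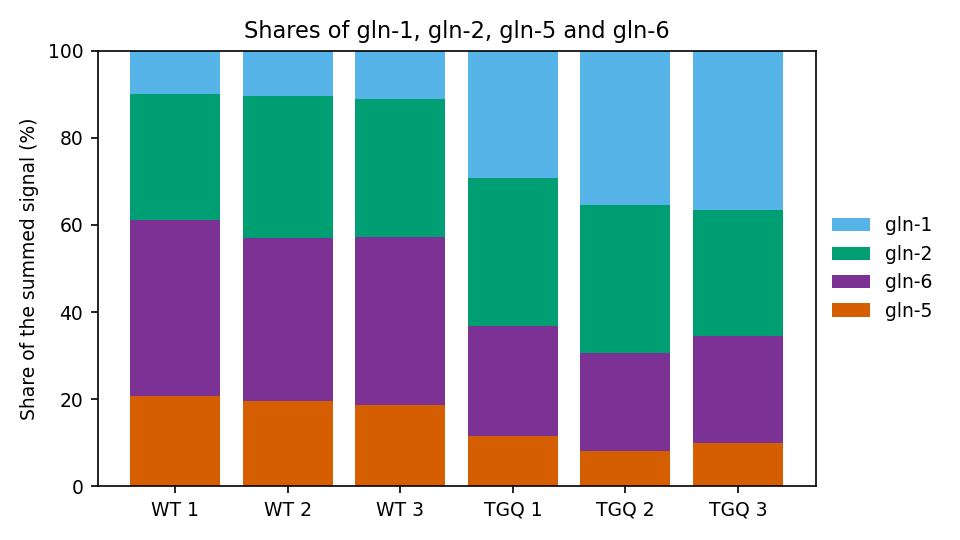
Share of each of 4 protein-coding glutamine synthetase genes in their summed signal (vertical axis, percent) for each sample. The joint share of gln-5 and gln-6 runs from 57.0% to 61.2% in WT and from 30.5% to 36.7% in TGQ, and the share of gln-1 is larger in all 3 TGQ samples.

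The genes whose profiles were most like those of the members included several of oocytes and the eggshell. Likeness was the root mean square difference between log2(signal + 1) profiles over the 6 samples after each gene's mean was subtracted, with no test. All genes of the table share these samples and were selected for the same contrast. The 5 genes nearest to gln-5 were cpg-3, which encodes a chondroitin proteoglycan, puf-5, a Pumilio-type RNA-binding protein of oocytes, sip-1, a small heat shock protein, vit-1, a yolk protein, and D1086.10. Their root mean square differences from gln-5 ran from 0.0528 to 0.09 log2 units. The mean signal of cpg-3 was 93.8 ± 20.1 for WT (SD, n = 3) and 23.7 ± 6.09 for TGQ, and that of puf-5 was 49.9 ± 14.8 and 12.5 ± 3.18.

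The 5 genes nearest to gln-6 were Y59E9AL.3, F42A8.1, cbd-1, which encodes a chitin-binding protein of the eggshell, C27D9.1 and mex-6, a zinc finger protein that acts in polarity of the early embryo. Their root mean square differences from gln-6 ran from 0.0673 to 0.0806. The signal of cbd-1 was 63.4 ± 18.2 in WT and 16.7 ± 2.83 in TGQ, and that of mex-6 was 31.1 ± 7.77 and 9.0 ± 1.88. The members were at 0.137 from each other, with 23 genes nearer to gln-5 than gln-6 is and 42 genes nearer to gln-6 than gln-5 is. The median gene lay at 0.901 from gln-5 and 0.79 from gln-6.

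**Figure D4:**
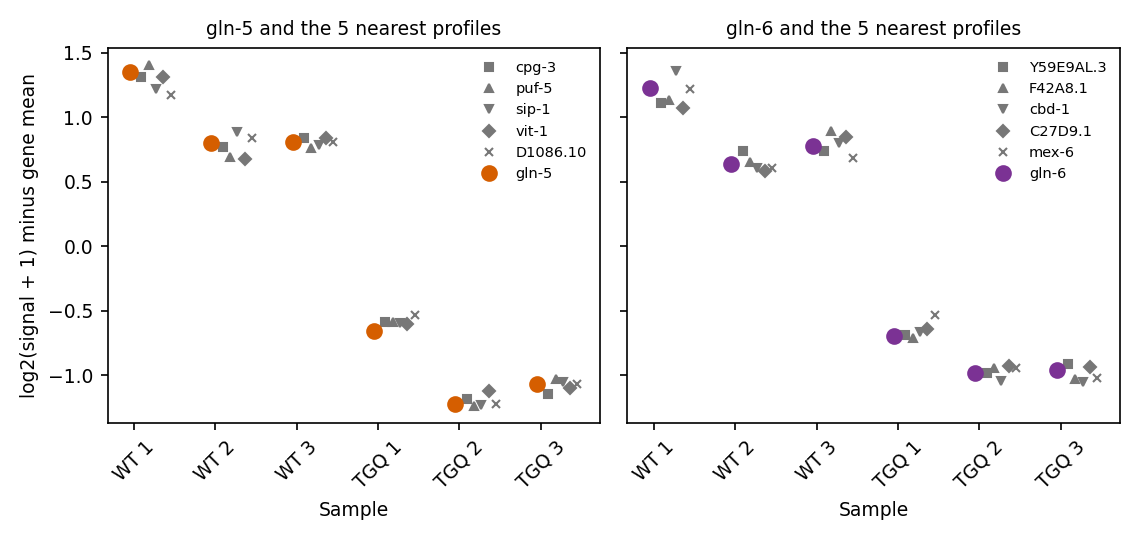
Profiles of gln-5 (left) and gln-6 (right) with the 5 genes of nearest profile, as log2(signal + 1) minus each gene's mean (vertical axis) in the 6 samples (horizontal axis). Large coloured circles are the members and small grey symbols the other genes. WT replicate 1 is the highest WT sample for both members, and the nearest genes lie within root mean square differences of 0.0528 to 0.09 of gln-5 and of 0.0673 to 0.0806 of gln-6.

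Markers of the germ line moved in the same direction as the members. Of 10 listed oocyte and eggshell markers, 9 were in the table and all 9 were called lower, with a median log2 difference of -2.02. Their summed signal ran from 1026 to 1385 in WT and from 186 to 304 in TGQ, 4.99 times as high in WT. In that sum, too, WT replicate 1 and TGQ replicate 1 were the highest of their groups, at 1.33 and 1.56 times the mean of the other 2. Both puf-5 and cbd-1 are among these markers. All 10 sperm markers were called lower (median -1.48), with sums of 2339 to 2775 in WT and 832 to 929 in TGQ. Of all genes tested, 44.6% were called lower.

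Per 1000 units of the summed oocyte and eggshell signal, gln-5 stood at 24.8, 22.0 and 22.8 in the WT samples and at 25.7, 26.6 and 27.5 in the TGQ samples. This ratio, computed after the data were seen, had means of 23.2 ± 1.48 for WT (SD, n = 3) and 26.6 ± 0.913 for TGQ. Relative to this sum gln-5 was therefore slightly higher in TGQ, which does not hold for each marker taken singly. The largest parts of the sum in WT, perm-2 and perm-4, had the largest falls (log2 differences of -2.72 and -2.46). By log2 difference oma-1, rme-2, cbd-1 and puf-5 fell less than gln-5, and the other markers in the sum fell more. Per 1000 units of the sum, gln-6 stood at 48.4, 42.0 and 47.7 in WT and at 55.9, 73.7 and 68.3 in TGQ. Likewise gln-2 had means of 36.6 ± 2.18 and 89.4 ± 19.8, and gln-1 had means of 12.5 ± 1.01 and 94.3 ± 26.4.

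Markers of body tissues in the table were mostly called higher in TGQ, against 45.6% of all genes tested. The authors had selected the table for a difference, and many of the listed markers were not in it. All markers in the table were called higher for muscle (4 of 10 listed), neurons (3 of 10) and the excretory cell and glia (4 of 6). Their sums ran from 121 to 175 in WT and from 199 to 244 in TGQ for muscle, from 26.1 to 34.4 and from 45.4 to 47.2 for neurons, and from 73.4 to 101 and from 136 to 149 for the excretory cell and glia. The sums overlapped between the groups for intestine (721 to 841 and 742 to 857, 2 of 3 called higher and 1 lower) and hypodermis (5303 to 5935 and 5152 to 5946, 3 of 6 called higher and 2 lower). The overlap for hypodermis covers large opposite differences of single genes. By group means col-10 rose from 1368 to 3042, dpy-7 from 63.0 to 162 and bli-1 from 99.9 to 158. In contrast, col-19 fell from 772 to 97.5 and col-12 from 1623 to 794, and dpy-13 was not called. None of the markers in the table was at 0 in all samples. In RNA of whole animals, fewer cells of a type and less RNA per cell cannot be told apart, and the part of these tissues in the difference of gln-5 and gln-6 was not tested.

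Among the enzymes that use glutamine, the 2 aminotransferases of the amino sugar route fell, and the other 5 tested rose. Of 10 listed glutamine amidotransferases, 7 were tested, of which 5 were called higher and 2 lower. Of all genes tested, 45.6% were called higher and 44.6% lower. In gfat-2 the signal was 55.1, 31.3 and 34.4 in WT and 12.8, 9.35 and 9.55 in TGQ, a fall with a log2 difference of -1.80 (SE 0.21, adjusted p = 0.000103, limma). All TGQ samples were below all WT samples, as for 47.2% of the genes tested. In gfat-2, too, WT replicate 1 and TGQ replicate 1 were the highest of their groups. Its paralog gfat-1 went from 55.4 ± 6.2 (SD, n = 3) to 34.3 ± 4.11, with a log2 difference of -0.68 (adjusted p = 0.0013, limma).

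Among the 5 amidotransferase genes called higher, the asparagine synthetase gene asns-2 had the largest rise. Its signal was 36.9, 27.6 and 31.7 in WT and 94.1, 78.1 and 77.2 in TGQ, a log2 difference of 1.35 (SE 0.13, adjusted p = 3.99e-05, limma). In the other 4 that rose all TGQ samples were above all WT samples, as for 44% of the genes tested. These other 4 serve nucleotide synthesis. These were pyr-1, the enzyme that opens the pyrimidine pathway, with 24.4 ± 5.32 in WT and 36.9 ± 5.76 in TGQ, ppat-1, of purine synthesis, with 7.8 ± 1.08 and 12.2 ± 1.97, ctps-1, a CTP synthase, with 43.5 ± 12.4 and 63.1 ± 4.48, and gmps-1, a GMP synthetase. The signal of gmps-1 was 33.9 ± 7.64 in WT and 45.1 ± 1.86 in TGQ (adjusted p = 0.0256, limma), and its call was lost with the authors' scaling (adjusted p = 0.0873) and when single samples were left out (adjusted p from 0.0594 to 0.0845 without WT replicate 2 or 3 or TGQ replicate 1 or 2).

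Of the 3 glutaminase genes listed, glna-3 was in the table. It went from 6.0 ± 1.19 to 3.73 ± 0.207, a fall with a log2 difference of -0.55 (SE 0.15, adjusted p = 0.00727, limma).

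Genes that make or use glutamate were mostly higher. Of 14 listed, 8 were tested, of which 7 were called higher and 0 lower, against 45.6% and 44.6% of all genes tested. The glutamate dehydrogenase gene gdh-1, of highest signal in these lists, stood at 709, 665 and 689 in WT and at 1064, 1018 and 978 in TGQ, a rise with a log2 difference of 0.57 (SE 0.07, adjusted p = 0.00018, limma). The aspartate aminotransferase gene got-1.2 rose from 107 ± 7.18 (SD, n = 3) to 164 ± 3.44. In contrast got-2.1, of the same enzyme class, was at 43.0 ± 7.04 and 37.9 ± 2.77 with overlapping groups (adjusted p = 0.243, limma). The authors' deposited table has got-2.1 lower in TGQ, with a log2 fold of -0.31 and an adjusted p under 0.05. Both genes of proline breakdown to glutamate rose, the proline dehydrogenase gene prdh-1, listed as B0513.5, from 16.2 ± 2.7 to 26.5 ± 2.04 and alh-6, which encodes the next enzyme, from 63.7 ± 2.63 to 91.7 ± 1.14.

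The glutamate-cysteine ligase gene gcs-1, of glutathione synthesis, rose from 28.5 ± 6.7 to 42.3 ± 3.14. Both listed genes for enzymes of the transmitter GABA rose. The gene unc-25, for the glutamate decarboxylase that makes GABA, went from 9.82 ± 0.236 to 16.1 ± 1.37. The gene gta-1, for the transaminase that breaks GABA down, went from 238 ± 11 to 329 ± 4.79.

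All 5 tested transporter genes, of 13 listed, were called higher, against 45.6% of all genes tested. The rest of those listed were not in the table, which the authors had selected for a difference. The glutamate transporter gene glt-1 rose from 47.8 ± 1.13 to 67.5 ± 2.46, glt-3 from 3.11 ± 0.354 to 5.66 ± 0.268 and glt-4 from 3.88 ± 1.83 to 6.91 ± 0.42. In glt-4 the WT samples were spread, at 5.9, 2.34 and 3.4. Of the ammonium transporter genes, amt-1 had a low signal of 1.04 ± 0.0819 in WT and 3.29 ± 0.462 in TGQ, the highest ratio of TGQ to WT (3.17) of the 25 list genes, and amt-4 rose from 22.5 ± 3.63 to 36.6 ± 1.5. Of 3 tRNA synthetase genes for glutamine and glutamate, ears-2 was in the table and rose from 10.81 ± 1.04 to 15.0 ± 0.372.

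Over all lists without the members, 25 of 47 names were tested, 19 called higher and 5 lower, against 45.6% and 44.6% of all genes tested. The share called, 96%, was near the 90.2% of the whole table. The median log2 difference of these 25 genes was 0.56, against -0.22 for all genes tested. The 5 that fell were gln-2, gln-4, gfat-1, gfat-2 and glna-3, with log2 differences from -0.55 to -1.80.

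**Figure D5:**
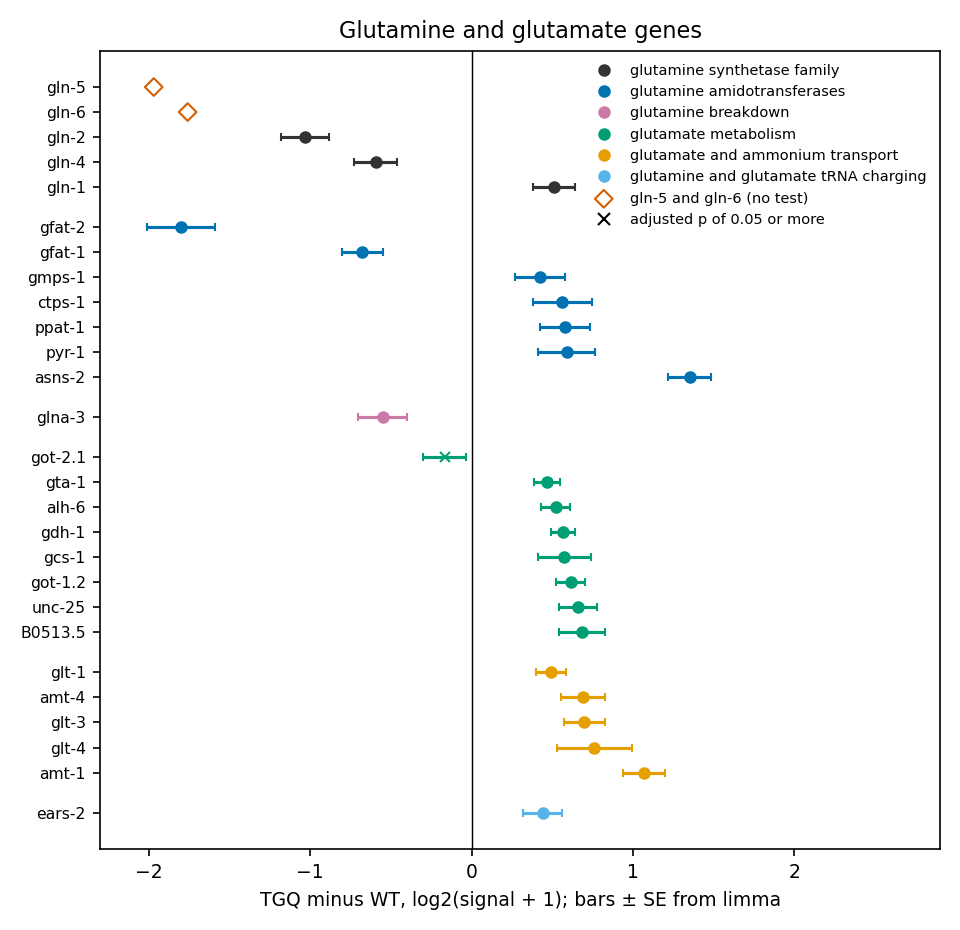
Log2 difference, TGQ minus WT on log2(signal + 1) (horizontal axis), of gln-5 and gln-6 and the 25 other list genes tested, grouped by role. Points are limma estimates with bars of ± SE, the cross marks got-2.1 with an adjusted p of 0.243, and open diamonds are gln-5 and gln-6, which were not tested. The glutamine synthetase and gfat genes lie left of 0 except gln-1, and the glutamate and transport genes lie right of 0 except got-2.1.

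The genomic neighbours of the members were described from the 3 nearest annotated protein-coding genes on each side. Of the 6 neighbours of gln-5, only hsp-1, a heat shock 70 family gene, was in the table, with 1344 ± 42.4 for WT (SD, n = 3) and 1249 ± 17.5 for TGQ (log2 difference -0.11, adjusted p = 0.163, limma). Of the 6 neighbours of gln-6, 4 were in the table. The 3 at higher coordinates, C28D4.7, C28D4.4 and C28D4.5, lie on the same strand and were all called lower, as were 44.6% of all genes tested. C28D4.7, separated from gln-6 by 973 bases, fell from 11.7 ± 3.53 to 4.29 ± 0.772 (log2 difference -1.24, adjusted p = 0.000521, limma), and the other 2 had log2 differences of -0.94 and -0.87. On the other side nhr-100, a nuclear hormone receptor gene, rose from 5.7 ± 1.23 to 8.79 ± 0.655. The gene C28D4.10 overlaps the end of gln-6 by 52 bases on the opposite strand and is not analysed here. The labels do not say that the reads kept strand, so reads from that stretch could belong to either gene.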

How the data were processed

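Whole L4 animals were measured in 3 WT and 3 TGQ samples, grouped by title. Whether replicates were separate cultures is not stated in the labels, so the spread that p-values measure may be technical. The submitters' processing notes name TopHat2 and RSEM with no role, and the sources used here do not give the genome build. The authors deposited an expression signal per gene and sample, of unnamed unit per the file headers. They also deposited a ratio of TGQ to WT (fold), its log2, a p-value and an adjusted p-value per gene. The signals are not counts, so depth is unknown and no counting interval is given. Their sums over the table ran from 327792 to 349508 in WT and from 282762 to 293887 in TGQ. Pearson correlations of log2(signal + 1) over genes were at least 0.988 between WT samples, at least 0.99 between TGQ samples and at most 0.928 across the groups.

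Genes with a signal of at least 1 in at least 3 samples (5540 genes) were fitted with limma 3.58.1 in R 4.3.3 on log2(signal + 1), with group as the single term and trend and robust options. P-values were adjusted by the Benjamini-Hochberg method over these genes. Symbols and coordinates come from the WBcel235 annotation. The members and lists were chosen with earlier results of these data known. The genes named are the members, every list gene in the table, per member the 5 nearest profiles and 3 neighbours a side, and F40F12.8, added after its values were seen. Alternatives were another pseudocount, no filter, other scalings, single samples left out, a replicate block and the authors' adjusted p-value.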

Additional observations from a re-analysis of the deposited data

How the results depend on the processing

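No alternative turned the direction of gln-5, of gln-6, of the gap between them or of any list gene tested. The log2 difference of gln-5 ran from -2.13 to -1.79 when single samples were left out, that of gln-6 from -1.88 to -1.59, and their gap from -0.28 to -0.14. With a pseudocount of 0.1 these were -2.12, -1.82 and -0.30, with the authors' scaling (TGQ lower by 0.131 on the log2 scale) -2.08, -1.88 and -0.20, and after quantile normalization -1.92, -1.65 and -0.26. Each of these moved by less than 1 SD between replicates. The table's calls numbered 4998, and from 4331 to 5222 under the limma alternatives, while the list genes called numbered 24, or 23 with the authors' scaling and from 23 to 24 with single samples left out. Calls higher were 44.3% of all calls with the authors' scaling against 50.6%, and the median log2 difference of all genes moved from -0.22 to -0.35 with it and to -0.10 after quantile normalization. Deviations from the group means had correlations of 0.247, -0.0115 and 0.16 between same-numbered samples for numbers 1, 2 and 3. Between samples of different number they ran from -0.234 to 0.165. With 3 samples per group this does not settle whether the numbers pair the samples. With the replicate block the log2 differences stayed at -1.97 and -1.76, with a gap of -0.21, and 5137 genes of the table and 24 of the list were called. By the authors' adjusted p-value all 5792 genes and all 25 list genes pass. Depth is unknown, and low signals such as that of amt-1 are the least certain.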
